A study of Cucumis sativus with 6 samples.

Results

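Of the 15720 genes measured in laser-dissected cucumber phloem, 167 (1.06%) had their peak in the stalk. A gene was taken as peaking in stalk when its stalk mean plus 5 was at least 2 times both the pedicle mean plus 5 and the fruit mean plus 5, when both stalk libraries lay above all 4 other libraries, and when its stalk mean was at least 100 TPTM. TPTM is the authors' score, a gene's value per 10000000 of a library. These rules use every library, so the height of the stalk over the other organs is described below and not tested.

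The samples were phloem of the stalk, the pedicle (the stem that carries flower and fruit) and the fruit, with 2 libraries each, described in the design text as biological replicates. All came from inbred line 9930, from young fruits harvested with their pedicles 3 days after flower opening, with no treatment or mutation in any group. The phloem was cut out by laser from fixed, embedded sections 10 µm thick, and its RNA was amplified over 2 rounds before library preparation. The labels do not say where pedicle ended and stalk began, nor how many plants made up a library. How far the p-values cover differences between plants is therefore not known. They rest on the spread between these libraries within every organ, and on the spread of other genes of like level.

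Phloem carries sugars, amino acids, hormones, RNAs and proteins from source leaves to growing organs. Its sieve elements are living cells without nuclei that are kept alive by companion cells, and parenchyma and fibre cells lie around them. Cucurbits are known for phloem on both sides of the xylem and for moving raffinose-family sugars as well as sucrose. A young fruit is a strong sink, fed through the phloem of the organs that bear it.

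Genes are known here by locus identifier alone. None of the identifiers (0 of 15720) occurs in the RefSeq table of 23999 cucumber genes used for names, so no product, protein or promoter is given, and the phloem identity of the cells was not checked against marker genes. The digit after "Csa" is read here as the chromosome number, a reading that no file or label used here states. The total of each library's scores was between 9991842 and 9995581 TPTM, and the reads behind a score are not recorded, so no counting interval is given.

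Genes peaking in stalk covered a wide range of levels and took 3.20% and 3.17% of all expression in the stalk libraries, against 0.873% and 0.955% in the pedicle libraries and 1.29% and 1.03% in the fruit libraries. As in any tissue sample, fewer cells of a type and less RNA per cell cannot be told apart in these shares. The stalk mean ran from 102.5 to 23615.5 TPTM with a median of 643.5 TPTM. In 63 members it was at least 1000 TPTM, in 6 at least 10000 TPTM, and in 36 under 200 TPTM. The 10 members with the highest stalk means made up 41.1% and 38.8% of the members' summed stalk score. All 167 members passed the filter on low values used for testing (2 or more libraries at 10 TPTM or above), and the lowest stalk value of any member was 72 TPTM. One member, Csa2G348200, passed only through its stalk libraries, and the other 166 would also pass on their pedicle and fruit libraries.

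The most abundant member was Csa2G356090 on chromosome 2, with 24545 and 22686 TPTM in the stalk libraries, 10396 and 11949 TPTM in the pedicle libraries and 12935 and 8146 TPTM in the fruit libraries. Its pedicle and fruit values overlapped, and both stalk values stood above them. Csa7G012410 on chromosome 7 followed, with 23582 and 17706 TPTM in stalk, 5457 and 6648 TPTM in pedicle and 10223 and 9128 TPTM in fruit. Here the organs did not overlap and pedicle was lowest. Both were modest peaks, 2.11-fold and 2.13-fold above the higher of the other organs on the scale of means plus 5. The 6 members of at least 10000 TPTM lay between 2.11-fold and 3.07-fold.

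Most stalk peaks were close to the fold that chose them. The fold over the higher of the other organs had a median of 2.45, quartiles of 2.22 and 2.87 and a highest value of 7.27. It reached 3 in 36 members, 4 in 13 and 5 in 5, and 10 in 0. Taken organ by organ, stalk was at least 4-fold above pedicle in 70 members and above fruit in 22, and at least 10-fold above pedicle in 17 and above fruit in 4. The shares of all genes at these folds are not given here, so these counts are not read as a trait of the members. Limma calls are an unlike measure. At a limma adjusted p under 0.05, 8.88% of all genes tested were higher in stalk than in pedicle, and 1.72% higher than in fruit. The shares lower in stalk are not given here, so no lean of the whole series is read from these calls. The median log2 difference over members was 1.85 from pedicle and 1.44 from fruit, where all 15381 genes tested had medians of 0.07 and -0.12. Leaving out the 2 members listed at 0 in both pedicle libraries gave a median of 1.84 from pedicle. Log2 differences are taken on log2(TPTM + 5), which understates the change of low genes.

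The tallest peak was in Csa1G039900 on chromosome 1, a gene of moderate level with 198 and 199 TPTM in the stalk libraries, 0 and 1 TPTM in the pedicle libraries and 13 and 33 TPTM in the fruit libraries. Its stalk libraries were nearly equal, and its pedicle libraries were at or next to 0. Stalk stood above fruit by 2.96 ± 0.50 and above pedicle by 5.22 ± 0.50 on the log2 scale (SE from the limma fit). Here and below, the SE of a stalk difference does not allow for the choice of genes by that difference. Each SE also draws on the replicate spread of every organ and of other genes. The difference of Csa1G039900 from pedicle depends on the constant added, at 7.14 with a constant of 1 and 3.41 with 20. With 20, its difference from fruit was 2.39, below the 2.70 of the next gene. Csa1G422470, also on chromosome 1, was second in height and far more abundant, with 9311 and 5291 TPTM in stalk, 225 and 227 TPTM in pedicle and 795 and 1428 TPTM in fruit. Even its lower stalk library was well above its highest fruit library, and stalk differed from fruit by 2.71 ± 0.33 and from pedicle by 4.93 ± 0.33 on the log2 scale.

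The other three members at least 5-fold above both organs, named after their values were seen, had pedicle and fruit closer together. Csa4G000030 had 1844 and 2066 TPTM in stalk, 304 and 400 TPTM in pedicle and 345 and 298 TPTM in fruit, with the last pairs overlapping. Csa3G124790 had 831 and 1633 TPTM in stalk, 173 and 291 TPTM in pedicle and 299 and 150 TPTM in fruit. Its pedicle libraries lay within the range of its fruit libraries, and its stalk replicates were about as far apart as its fruit replicates. Csa5G599820 had 755 and 359 TPTM in stalk, 118 and 73 TPTM in pedicle and 42 and 35 TPTM in fruit. Its stalk replicates were about 2-fold apart, yet the lower one remained well above every pedicle and fruit library.

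**Figure D1:**
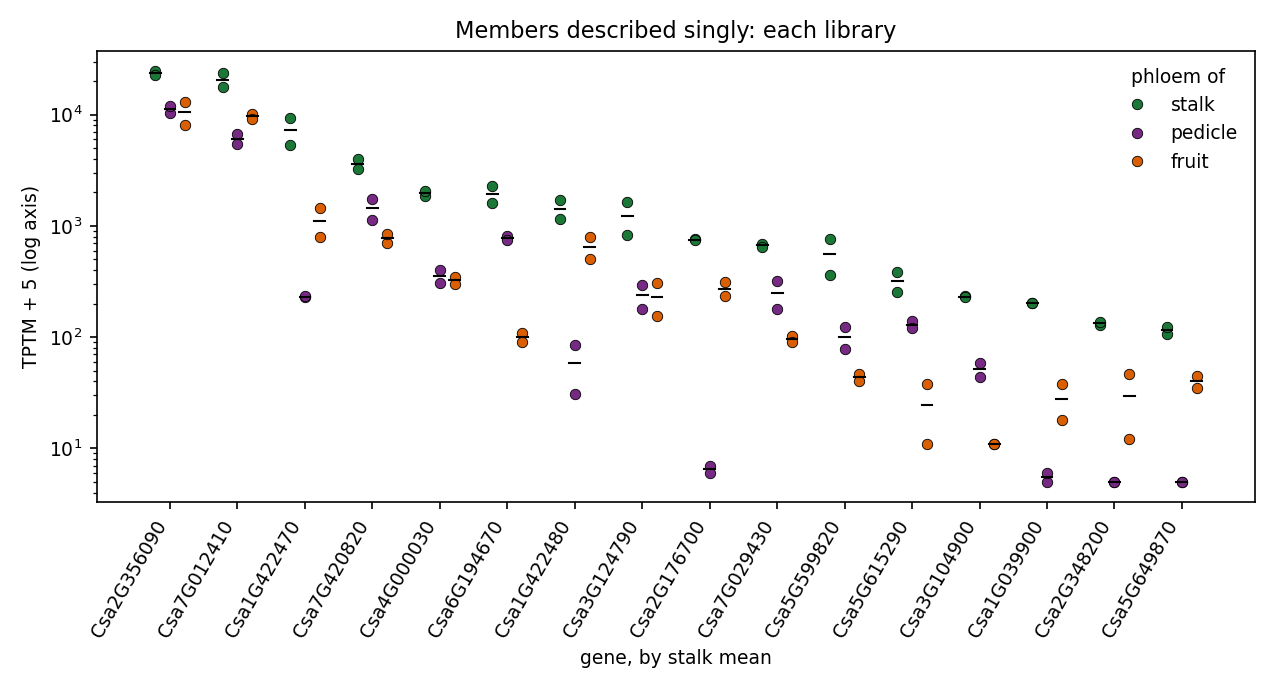
TPTM plus 5 on a log axis for 16 of the members described singly, ordered by stalk mean, with a point for each library of stalk, pedicle and fruit and a bar at each organ's mean. Csa7G430250, Csa1G422990 and Csa5G649880, also described in the text, are not shown. Both stalk points lie above all 4 others in every gene, as the choice of genes requires, while the order of pedicle and fruit differs from gene to gene.

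Members with little or no pedicle signal formed one end of the group. In 6 members both pedicle libraries were under 10 TPTM, while their stalk means ran from 110 to 748.5 TPTM and their fruit means from 23 to 266 TPTM. Csa2G176700 on chromosome 2 differed most between stalk and pedicle, with 756 and 741 TPTM in stalk, 2 and 1 TPTM in pedicle and 305 and 227 TPTM in fruit. Stalk stood 6.86 ± 0.35 above pedicle and 1.49 ± 0.35 above fruit on the log2 scale. The difference from pedicle was 8.26 with a constant of 1 and 5.16 with 20. Csa2G348200 and Csa5G649870, named after their values were seen, were listed at 0 in both pedicle libraries. Csa2G348200 had 124 and 131 TPTM in stalk and 7 and 42 TPTM in fruit, and Csa5G649870 had 102 and 118 TPTM in stalk and 40 and 30 TPTM in fruit.

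Among the members, low signal in fruit was rarer than low signal in pedicle. The shares of all genes at such levels are not given here, so this is not read as a trait of the members. Both fruit libraries were under 10 TPTM in 1 member, Csa3G104900 on chromosome 3, which had 228 and 222 TPTM in stalk, 54 and 39 TPTM in pedicle and 6 TPTM in each fruit library. It had the largest log2 difference of stalk from fruit, 4.39 ± 0.41, against 2.17 ± 0.41 from pedicle. Its first place depended on the constant: with 20 it was 3.24, below the 4.07 of Csa6G194670. Csa6G194670 on chromosome 6 came next, at 4.26 ± 0.27 from fruit and 1.30 ± 0.27 from pedicle. It had 2260 and 1586 TPTM in stalk, 798 and 734 TPTM in pedicle and 103 and 86 TPTM in fruit, and no organ overlapped another. No member was under 10 TPTM in all pedicle and fruit libraries (0 of 167), and in 121 members the higher of the other organs had a mean of at least 100 TPTM.

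**Figure D2:**
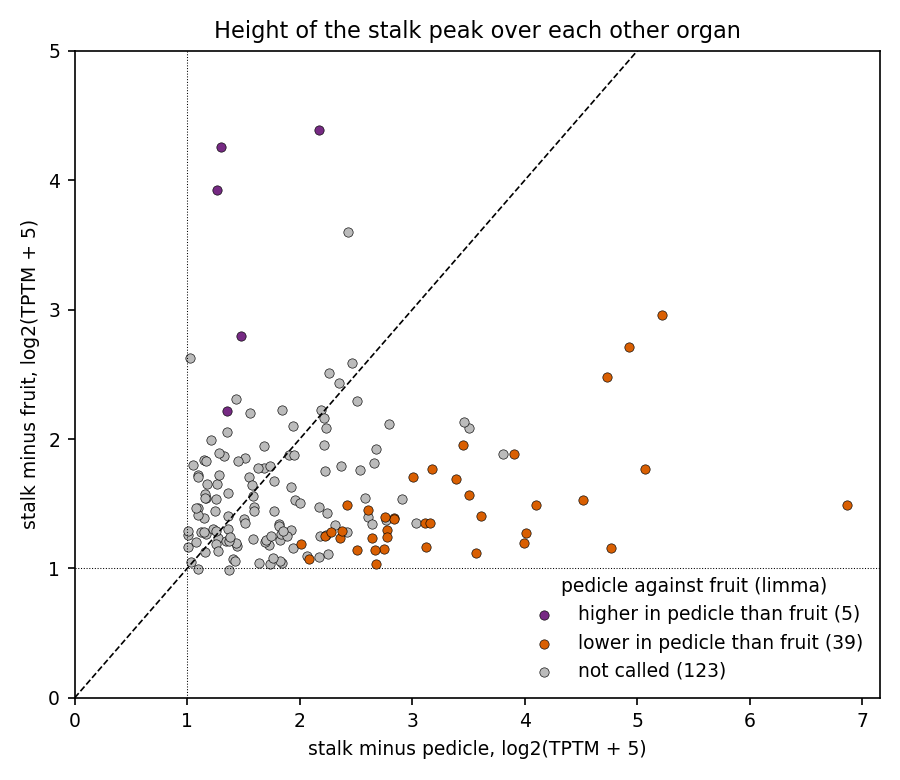
Log2 difference of stalk from fruit against that of stalk from pedicle for the 167 members, with the dashed line where they are equal, dotted lines at 1 and colours for the pedicle against fruit call. The height of a point over the dashed line is its pedicle minus fruit difference. The 5 members called higher in pedicle than in fruit therefore must lie above the line, and the 39 called lower must lie below it. The largest difference of stalk from pedicle was 6.86, in Csa2G176700.

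The choice of members did not fix which of pedicle and fruit was the higher of the pair. It did hold both below the stalk, and so bears on the size of their difference. The genes tested as a whole have no such limit, so the shares below are not fully alike. In the limma fit to all genes and organs, 44 of the 167 members (26.3%) passed at a p under 0.05 after Benjamini-Hochberg adjustment, where 22.6% of all genes tested were called. Of these members, 39 (23.4%) were lower in pedicle than in fruit, where 15.1% of all genes were, and 5 (2.99%) were higher in pedicle, where 7.54% of all genes were. Whether these shares differ from those of other genes was not tested. Without Csa2G348200, 43 members were called, of which 38 were lower in pedicle. The pedicle and fruit libraries did not overlap in 91 members (54.5%), against 57.9% of all genes tested. They lay wholly lower in pedicle in 71 (42.5%, against 36.4%) and wholly higher in 20 (12.0%, against 21.5%).

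The median log2 difference of pedicle from fruit was -0.37 over the members and -0.21 over all genes tested. Fruit had the higher mean in 111 members (66.5%), against 58.7% of all genes tested. The difference was within 0.5 on the log2 scale in 75 members (44.9%), against 43.6% of all genes tested. The count of 44 became 23 (13.8%) when fruit replicate 1 was left out, with 11.6% of all genes then called. Leaving out fruit replicate 2 gave 33 members (19.8%), with 11.5% of all genes called, so the members' share stood further above that of all genes. Leaving out stalk replicate 1 gave 29 members (17.4%), as did leaving out stalk replicate 2, with 14.1% of all genes called each time. The pedicle and fruit libraries fitted alone gave 27 members (16.2%), again with 14.1% of all genes called.

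**Figure D3:**
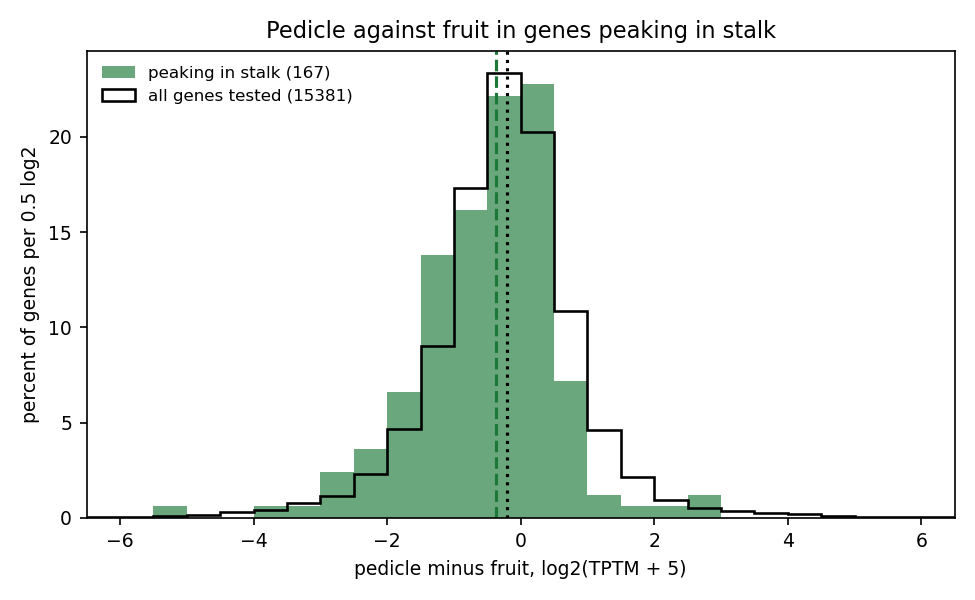
Percent of genes in each step of 0.5 of the log2 difference of pedicle from fruit, for the 167 members (filled) and all 15381 genes tested (outline), with vertical lines at the medians. The members' median of -0.37 lies to the left of the median of -0.21 over all genes, and few members stand at the far right.

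The 39 members lower in pedicle than in fruit had log2 differences between -5.37 and -0.82, with a median of -1.54 over the 37 not listed at 0 in both pedicle libraries. Their stalk means ran from 110 to 11671.5 TPTM. The largest differences were in Csa2G176700, whose values are given above (log2 difference -5.37 ± 0.35, limma adjusted p = 7.66e-06), and Csa1G422480. With constants of 1 and 20 the difference of Csa2G176700 was -6.75 and -3.72. Second place depended on the constant: with 1, Csa1G422480 was at -3.73, behind genes listed at or next to 0 in pedicle. Csa1G422480 had 80 and 26 TPTM in pedicle and 781 and 494 TPTM in fruit, with 1700 and 1141 TPTM in stalk. Its pedicle replicates were far apart, and both lay well below its fruit libraries. The pedicle minus fruit difference was -3.61 ± 0.45 on the log2 scale (limma adjusted p = 0.00034). The tallest peaks, Csa1G039900 and Csa1G422470, also belonged here, at -2.26 ± 0.50 (limma adjusted p = 0.0087) and -2.21 ± 0.33 (limma adjusted p = 0.0011). The call of Csa1G039900 was lost without fruit replicate 2, at a limma adjusted p of 0.072, and its difference was -3.95 with a constant of 1 and -1.03 with 20. Csa5G649870 was lower in pedicle at limma adjusted p = 0.0011. No test is given for Csa2G348200, which met the filter on low values only with its stalk libraries.

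The 5 members higher in pedicle than in fruit are given in full because they are few. The largest difference was in Csa6G194670, whose values are given above (log2 difference 2.96 ± 0.27, limma adjusted p = 5.62e-05). With a constant of 1 it was 3.01, just below the 3.02 of the next gene. Csa5G615290 on chromosome 5 had 134 and 115 TPTM in pedicle and 6 and 33 TPTM in fruit, with 377 and 247 TPTM in stalk. Its fruit replicates were far apart but below each pedicle library. The pedicle minus fruit difference was 2.66 ± 0.54 on the log2 scale (limma adjusted p = 0.0058), and it became 1.76 when fruit replicate 1 was left out and 3.55 when fruit replicate 2 was. Csa3G104900 differed by 2.21 ± 0.41 (limma adjusted p = 0.0036), and by 1.35 with a constant of 20.

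The remaining pair was named because of this count. Csa7G029430 had 317 and 173 TPTM in pedicle and 97 and 85 TPTM in fruit, with 677 and 647 TPTM in stalk. Pedicle stood above fruit by 1.32 ± 0.34 on the log2 scale (limma adjusted p = 0.018). Csa7G420820 had 1128 and 1733 TPTM in pedicle and 702 and 837 TPTM in fruit, with 3232 and 3978 TPTM in stalk. Pedicle stood above fruit by 0.86 ± 0.27 on the log2 scale (limma adjusted p = 0.039). In both the 3 organs stood clear of each other in the order stalk, pedicle, fruit. Neither call held with any 1 stalk or fruit library left out or with the pedicle and fruit libraries alone. The call of Csa7G029430 was also lost without pedicle replicate 1, and that of Csa7G420820 without pedicle replicate 2, where its difference was 0.55, or without the intensity trend. Their limma adjusted p reached 0.102 and 0.187 over these settings.

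The members' replicates were compared within each organ. The median log2 SD between the stalk libraries was 0.21 over the members and 0.17 over the 8975 genes with a stalk mean of at least 100 TPTM. Between the pedicle libraries it was 0.30 over the members, 0.32 over all genes tested and 0.26 over genes with a pedicle mean of at least 100 TPTM. Between the fruit libraries it was 0.34 over the members, 0.27 over all genes tested and 0.23 over genes with a fruit mean of at least 100 TPTM. Stalk replicate 1 was the higher in 89 of the 167 members. On values plus 5, the stalk libraries were at least 1.5-fold apart in 27 members and at least 2-fold apart in 2. The widest gap, 2.25-fold, was in Csa7G430250, named for it after its values were seen. It had 168 and 72 TPTM in stalk, 38 and 70 TPTM in pedicle and 1 and 53 TPTM in fruit, so its lower stalk library barely cleared its higher pedicle library. In 68 members the lower stalk library was at least 2-fold above the highest library of the other organs, and the median of this fold was 1.89.

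Choosing genes on 1 library of each organ allowed their values to be read in the libraries not used for the choice. Replicate 1 of each organ alone gave 226 genes by the same rule, and replicate 2 alone gave 222. They shared 91 genes, 40.3% of the replicate 1 list and 41.0% of the replicate 2 list. In the genes chosen on replicates 1, the median fold over the higher other organ was 2.40 in those libraries and 1.77 in replicates 2. In the genes chosen on replicates 2, it was 2.43 in those libraries and 1.81 in replicates 1. Stalk was the highest organ in the unused libraries in 183 of the 226 genes (81.0%) and in 192 of the 222 (86.5%). The same held for 24.1% and 34.3% of all genes with at least 100 TPTM in the stalk library used for the choice. Those genes are like the lists in level only. This is 1 split, by replicate number, and it describes these lists and not the members, so no conclusion is drawn from it.

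**Figure D4:**
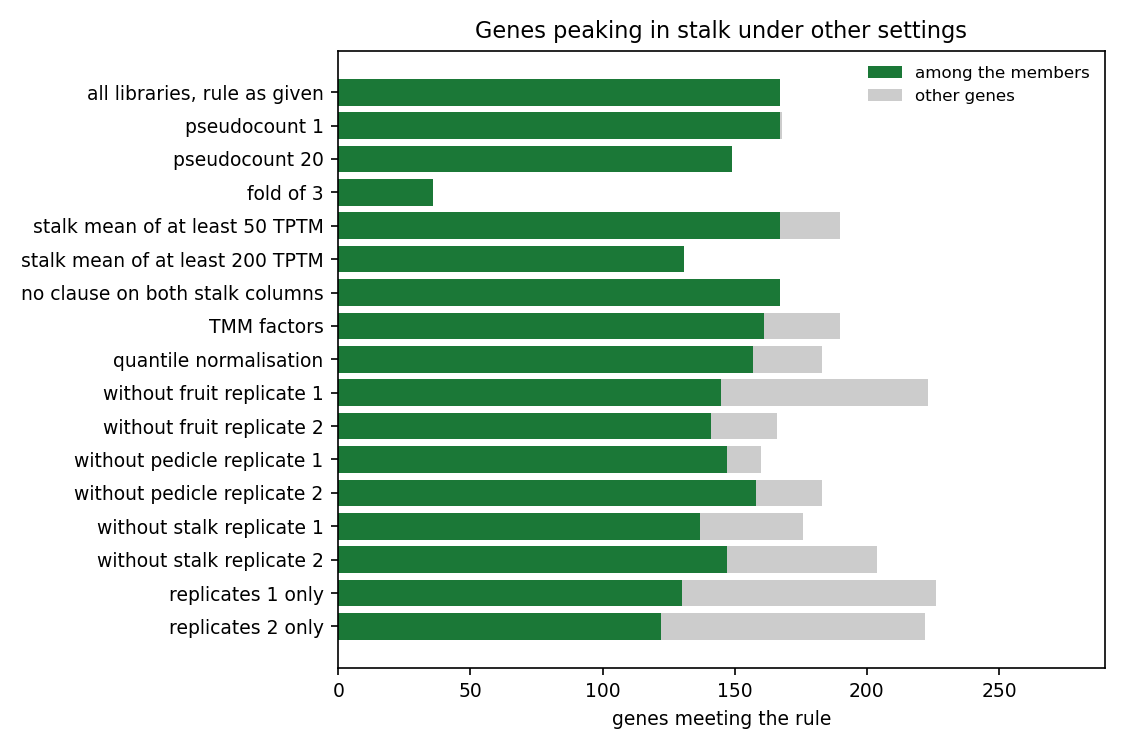
Number of genes that meet the rule with other settings or with libraries left out, split into the 167 members (green) and other genes (grey). The setting with a fold of 1.5, which gave 458 genes including all 167 members, is not shown. The number stays between 160 and 223 with 1 library left out, and 137 to 158 of the members are then still included.

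With each library left out in turn, 160 to 223 genes met the rule. The number of members among them was lowest without stalk replicate 1 (137 of 167) and highest without pedicle replicate 2 (158 of 167). In every one of these 6 settings, 84 members (50.3%) were kept. The demand that both stalk libraries lie above all others removed no gene that met the other conditions (0 genes). The fold alone removed 884 genes that met the rest, and the level of 100 TPTM alone removed 83.

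The values of genes on either side of the thresholds were close. The members nearest the fold threshold had 1153 TPTM in stalk, 574 in pedicle and 481.5 in fruit (mean of 2 libraries), a fold of 2.00, and 199.5 TPTM in stalk, 90.5 in pedicle and 97 in fruit, also a fold of 2.00. The genes just outside had 2709.5 TPTM in stalk, 1355.5 in pedicle and 814.5 in fruit, and 378 TPTM in stalk, 142 in pedicle and 187.5 in fruit, with folds of 1.995 and 1.99. By level, the lowest members had stalk means of 102.5 and 106 TPTM, and the highest genes left out had 98 and 92.5 TPTM.

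Members came from every chromosome. By the identifiers, 35 lay on chromosome 3 (21.0% of members, against 21.0% of the genes in the table), 32 on chromosome 6 (19.2%, against 16.7%), 24 on chromosome 7 (14.4%, against 9.81%) and 22 on chromosome 5 (13.2%, against 13.1%). Chromosome 1 held 21 (12.6%, against 14.3%), chromosome 2 held 18 (10.8%, against 12.5%) and chromosome 4 held 14 (8.38%, against 12.1%), and 1 was unplaced. These shares were not tested.

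In 6 places, consecutive genes of the table were both members, which involved 11 of the 167 members (6.59%). By the same rule, such pairs held 17.4% of the 454 genes peaking in pedicle and 9.43% of the 403 peaking in fruit. These groups are larger, and the shares were not tested. A run on chromosome 1, named after its place was seen, held Csa1G422470, Csa1G422480 and Csa1G422990, of which the first 2 have adjoining identifiers and the last has a number 510 higher. Csa1G422990 had 13451 and 7936 TPTM in stalk, 1798 and 2250 TPTM in pedicle and 4574 and 4223 TPTM in fruit. All 3 genes had stalk replicate 1 above stalk replicate 2 and pedicle below fruit. The other 4 pairs had adjoining identifiers. One of them joined Csa5G649870, listed at 0 in both pedicle libraries, to Csa5G649880, the member nearest the fold threshold, which had 643 and 505 TPTM there. Neighbouring genes can be close copies or overlap, and how reads shared between such genes were counted is not given in the sources used here, so the levels within these pairs are uncertain.

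The same rule with another organ in the place of stalk found 454 genes peaking in pedicle and 403 in fruit. The highest fold over the higher other organ was 7.27 among genes peaking in stalk, against 91.9 among those peaking in pedicle and 43.2 among those peaking in fruit. The median fold was 2.45 for stalk, 2.72 for pedicle and 2.52 for fruit. Peaks of at least 10-fold numbered 0 of 167 in stalk, 37 of 454 in pedicle and 11 of 403 in fruit. The median level in the organ of the peak was 643.5 TPTM for stalk, 408.75 TPTM for pedicle and 333.5 TPTM for fruit. Each group was chosen by these same values, so they are set side by side with no test. The limma fit called 139 of the 167 members higher in stalk than in pedicle, where 8.88% of all genes were, and 86 higher in stalk than in fruit, where 1.72% of all genes were. Both contrasts chose the members, and nothing is read from these counts.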

How the data were processed

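The submitters' processing notes name TopHat and HTSeq. Their versions, the annotation and the build were not given in the sources used here. One deposited table lists a whole-number expression score (TPTM), made by the authors, for 15720 genes in each of 6 libraries. The columns sum to nearly 10000000 each, so the scores are normalised and rounded values, and no count model was used. Reads behind a score, and so the depth, are unknown. Each column was matched to a library by its label.

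Members were chosen by the rule given above on the deposited scores. The members and the gene lists were chosen with earlier results of these data known. The lists, defined by product words, could not be applied to identifiers.

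Log2(TPTM + 5) was fitted with limma 3.58.1 in R 4.3.3, with a term per organ over all 6 libraries, an intensity trend, 3 residual and 7.76 prior degrees of freedom and Benjamini-Hochberg adjustment over the 15381 genes that reached 10 TPTM in 2 or more libraries (339 did not). The fit code was run on simulated data with normal noise, spreads shuffled over genes and changes in pedicle only. That run checked the code and does not measure error rates in these data. With identifiers only, genes named by rule were the 2 highest in stalk, the 2 largest differences of stalk from pedicle, from fruit and from the nearer of the pair, and the 2 largest called differences each way between pedicle and fruit. Alternatives were other constants, thresholds, filters, scalings and priors, a replicate block and libraries left out.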

Additional observations from a re-analysis of the deposited data

How the results depend on the processing

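The number of genes peaking in stalk, 167, was 458 with a fold of 1.5 and 36 with a fold of 3, as a looser or stricter threshold must give. The other constants, levels and scalings gave 131 to 190 genes, and leaving out 1 library in turn gave 160 to 223. Between pedicle and fruit, the members called, 44, numbered 27 with only the pedicle and fruit libraries in the fit (3 higher and 24 lower in pedicle) and 23 to 49 with 1 library left out (3 to 6 higher and 20 to 44 lower). The median pedicle minus fruit difference of all genes, -0.21, became -0.04 with TMM factors and 0.01 with quantile normalisation. Each gave 8 members higher and 32 lower in pedicle, with a members' median of -0.20 and -0.21. A replicate block left 44 members called. Replicate differences across genes correlated at -0.0487 for pedicle and fruit, 0.0103 for stalk and fruit and -0.117 for stalk and pedicle. These values bear only on pairing by replicate number, and cannot settle whether libraries of different organs shared plants. The cause of the changes between settings was not tested. The members' median log2 differences of stalk stayed within 1.74 to 1.91 from pedicle and 1.35 to 1.58 from fruit. Of the 44 calls, 3 higher and 13 lower in pedicle held in all 16 alternatives.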
